A study of Mus musculus with 4 samples.

Results

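The 10 desmosome genes described here are Dsg2, Dsg3, Dsc2, Dsc3, Dsp, Jup, Pkp1, Pkp3, Pkp4 and Perp, taken by gene symbol from the 27933 genes counted in each library. All 10 were found, and all 10 passed the filter on low counts that left 13348 genes for testing. RNA was sequenced from sorted mouse melanocyte stem cells, which reside in hair follicles of the skin and give rise to pigment cells. The stressed mice had received RTX, which the labels name by this abbreviation alone, and the control mice saline, and cells were harvested 12 h after the RTX injection. Each group held 2 libraries. The labels give no strain, age or sex, and do not say whether the libraries came from separate animals, so the spread between them may be partly technical.

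Desmosomes are spot-like junctions that rivet neighbouring epithelial cells together and anchor their keratin filaments. Desmoglein and desmocollin cadherins cross the gap between the cells. Inside the cell they bind plakoglobin and the plakophilins, armadillo proteins of the plaque, which hold the plakin desmoplakin, and desmoplakin binds the keratin filaments. In skin these junctions are the mark of keratinocytes, whereas melanocytes are known to attach to keratinocytes mainly through E-cadherin.

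Libraries held 10625688 and 11104039 counts in stressed replicates 1 and 2, and 9273652 and 11854280 counts in control replicates 1 and 2. Values are given in CPM (counts scaled to a common total per library by TMM factors), and the most that a count of 0 allows, 3 counts, is 0.253 to 0.323 CPM by library total. Pairs of values are in the order of replicates 1 and 2 throughout. The sorted cells carried the markers of their label, with 10 melanocyte markers at a summed 40478 and 37968 CPM in the stressed libraries and 23186 and 22049 CPM in the controls. Keratinocyte marker RNA was present in every library: 17 markers summed to 11398 and 9838 CPM in the stressed libraries, against 30291 and 17699 CPM in the controls, and none of the 17 was at 0 in any library. All 17 keratinocyte markers had fitted edgeR values below 0, against 50.9% of all genes, and 7 of them fell by DESeq2, against 2.67%. Of the 10 melanocyte markers 9 had fitted edgeR values above 0 and 4 rose by DESeq2, against 1.75% of all genes. Summed markers of fibroblasts, endothelium, immune cells and muscle stayed at or below 40.6 CPM in every library. The 6 Schwann cell markers summed to 973 and 762 CPM in the stressed libraries and 816 and 1060 CPM in the controls, and the 4 sebocyte markers to 419 and 586 CPM in the stressed libraries and 908 and 757 CPM in the controls.

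The most abundant desmosome genes were lower in stressed than in control cells. Dsc3, Dsp, Jup, Pkp1, Pkp3 and Perp fell by DESeq2, a test on counts with its p adjusted over all genes, to between 0.443 and 0.631 of the control mean. DESeq2 called 6 of the 10 lower and 0 higher at an adjusted p below 0.05, where 2.67% of all 13348 genes were called lower and 1.75% higher. In the edgeR quasi-likelihood test, the main analysis, 0 of the 10 and 0% of all genes were called, while 6 of the 10, the same genes, were lower at an unadjusted p below 0.05, against 7.6% of all genes, and 0 were higher, against 5.17%. Fitted edgeR values were below 0 for 9 of the 10 genes and for 50.9% of all genes. Both stressed libraries lay below both controls for 7 of the 10 genes, and for 22.9% of all genes. The median log2 fold change of the 10 was -0.88, against -0.0091 over all tested genes. In a sorted bulk sample, fewer cells of a type and less RNA per cell cannot be told apart, and keratinocyte marker RNA was lower in the same libraries.

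The calls rested on the libraries included. With 1 library left out, the spread came from the pair of the other group alone. Over genes with 10 counts or more, the stressed pair differed less than the control pair. The chi-square per degree of freedom was 18 against 54. Calls without a control were thus made at a smaller spread than calls without a stressed library. Without control replicate 1, DESeq2 called Pkp1 and Pkp3 alone among the 10, with 1.46% of all genes called lower, and edgeR called the same 2, with 2.33%. Without control replicate 2, both tests called the 6 genes lower, with 3.42% of all genes for DESeq2 and 3.71% for edgeR. Without stressed replicate 1 DESeq2 called 0 of the 10, with 0.761% of all genes, although 6 were lower at an unadjusted p below 0.05, against 4.71% of all genes. Without stressed replicate 2 it called 0 of the 10, with 0.237% of all genes, and 5 were lower at an unadjusted p below 0.05, against 3.52%. With the replicate number as a block DESeq2 called 5 of the 10, without Jup, and 2.2% of all genes lower. In edgeR without a stressed library those unadjusted counts were 4 and 2, against 4.9% and 3.29% of all genes, with 0 of the 10 called after adjustment.

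**Figure D1:**
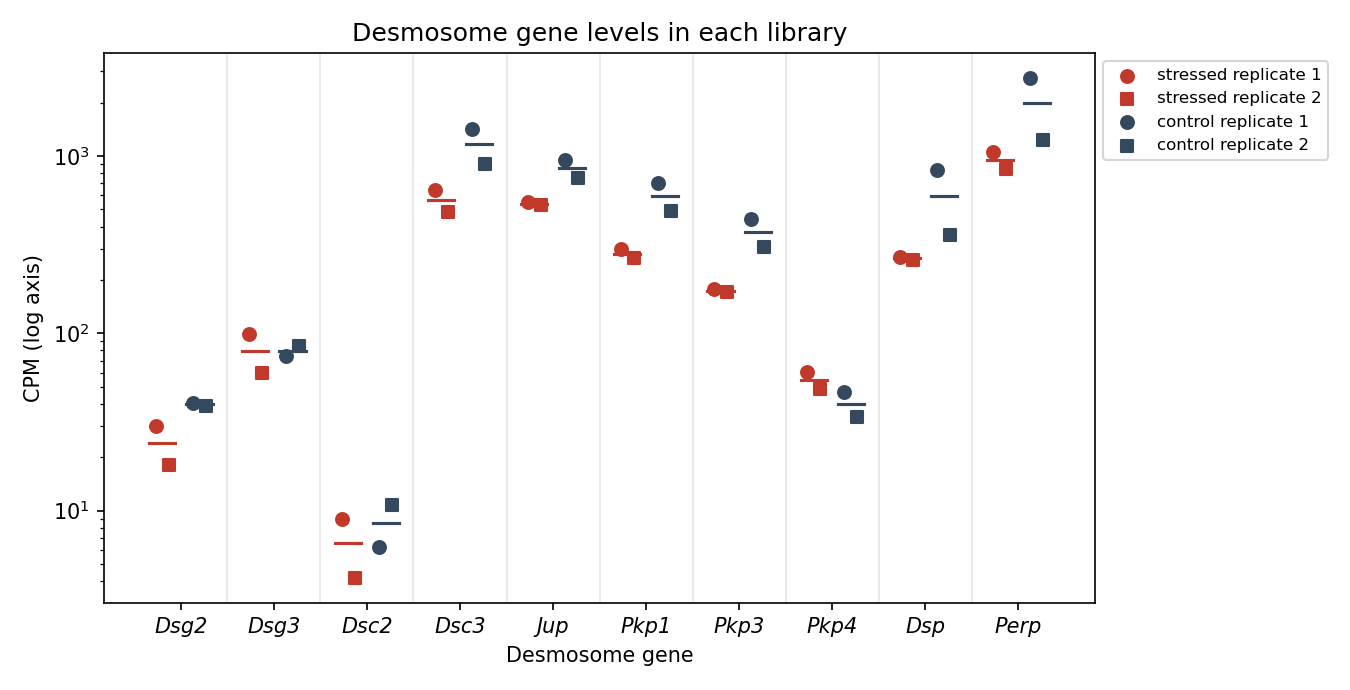
Level of each desmosome gene in CPM, on a log axis, in the 2 stressed (red) and 2 control (dark blue) libraries; circles are replicate 1, squares replicate 2 and bars the group mean. For the 6 most abundant genes and Dsg2 each stressed point lies under each control point, while Pkp4 lies higher and Dsg3 and Dsc2 overlap.

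The desmosomal cadherins were very unequal in level. Dsc3, the desmocollin of basal stratified epithelium, stood at 642 and 485 CPM in the stressed libraries, against 1427 and 905 CPM in the controls. Both stressed libraries were below both controls, and the controls themselves were 1.58-fold apart. Dsc3 fell by DESeq2 with a log2 fold change of -1.04, an SE of 0.28 and an adjusted p of 0.00805, and the edgeR adjusted p was 0.242. Without control replicate 1 the edgeR log2 fold change of Dsc3 was -0.67.

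Dsg3, the desmoglein of the lower epidermis, did not share that difference. It was at 99.5 and 59.5 CPM in the stressed libraries, against 74.7 and 84.7 CPM in the controls, so the stressed libraries enclosed the controls. Its edgeR log2 fold change was -0.0043 with an SE of 0.27, and its sign turned with the scaling and with the library left out. The ratio of Dsc3 to Dsg3 CPM, which does not account for length and is compared only between libraries, was 6.45 and 8.16 in the stressed libraries, against 19.1 and 10.7 in the controls.

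Dsg2 and Dsc2, the desmosomal cadherins that simple epithelia and heart also use, were scarce. Dsg2 was at 30.1 and 18.1 CPM in the stressed libraries, against 40.6 and 38.7 CPM in the controls, and both stressed libraries lay below both controls. The DESeq2 log2 fold change was -0.71 with an SE of 0.36 and an adjusted p of 0.368, and Dsg2 was not called. Dsc2 had between 46 and 127 counts a library, or 9.01 and 4.18 CPM in the stressed libraries against 6.21 and 10.8 CPM in the controls. The groups of Dsc2 overlapped, and its log2 fold change of -0.37 was smaller than the SE of 0.53 in edgeR.

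The 4 cadherin genes lie in 1 cluster on chromosome 18 (mm10), between positions 19960930 and 20604521, with the desmocollin genes on the minus strand and the desmoglein genes on the plus strand. The span of 704331 bases that the files give, which also takes in the far end of the antisense gene Gm16090, holds 9 desmosomal cadherin genes. Neighbours within it differed widely in level per length, with Dsc3 at 121 and 91.5 CPM per kilobase of exon in the stressed libraries and 269 and 171 in the controls, and Dsc2 at 1.71 and 0.793 in the stressed libraries and 1.18 and 2.04 in the controls. Gm16090 shares 330 exon bases with Dsg2 on the opposite strand and had at most 3 counts in a library. Counting ignored strand, so reads of the pair cannot be told apart. No other gene counted in the files overlapped the exons of any of the 10. In the GENCODE annotation Gm10129, which was not counted, shares 465 exon bases with Dsp on the opposite strand. Any reads of Gm10129 there would have counted as Dsp.

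Jup encodes plakoglobin, a close relative of β-catenin that ties the cadherin tails to desmoplakin and also serves in adherens junctions. It was at 549 and 529 CPM in the stressed libraries, against 955 and 752 CPM in the controls, with the groups apart. Jup fell by DESeq2 with a log2 fold change of -0.66, an SE of 0.21 and an adjusted p of 0.0453, the smallest fall of the 6 called genes, and the edgeR adjusted p was 0.291. Without control replicate 1 the edgeR value was -0.47.

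Pkp1 and Pkp3 encode plakophilins that cluster desmosomal proteins in stratified epithelium. Pkp1 was at 298 and 266 CPM in the stressed libraries, against 705 and 487 CPM in the controls, with a DESeq2 log2 fold change of -1.08, an SE of 0.25 and an adjusted p of 0.00110. Pkp3 was at 177 and 171 CPM in the stressed libraries, against 441 and 305 CPM in the controls, with a DESeq2 log2 fold change of -1.09, an SE of 0.25 and an adjusted p of 0.000926. Both fell by DESeq2, and in both every stressed library lay below every control. The edgeR adjusted p values were 0.175 for Pkp1 and 0.157 for Pkp3.

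The ratio of Pkp1 to Pkp3 CPM was nearly the same in all 4 libraries, at 1.68 and 1.55 in the stressed libraries against 1.6 in both of the controls. The pair lies on different chromosomes, Pkp1 at 135871395-135919207 on chromosome 1 and Pkp3 at 141078218-141090510 on chromosome 7 (mm10). Without control replicate 1 the edgeR log2 fold changes of Pkp1 and Pkp3 were -0.78 and -0.80.

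Pkp4 encodes p0071, an armadillo protein found in both desmosomes and adherens junctions and outside stratified epithelium. It was the only member with a positive fitted value in edgeR. It was at 60.1 and 48.2 CPM in the stressed libraries, against 46.5 and 33.6 CPM in the controls, so both stressed libraries lay above both controls, as for 21.8% of all genes. The DESeq2 log2 fold change was 0.44 with an SE of 0.31 and an adjusted p of 0.635, so Pkp4 was not called, and with 1 library left out the edgeR value ran from 0.22 to 0.70. The ratio of Pkp4 to Pkp1 CPM was 0.202 and 0.182 in the stressed libraries, against 0.0659 and 0.0690 in the controls.

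Dsp encodes desmoplakin, the plakin that links the plaque to keratin. It was at 270.0 and 259 CPM in the stressed libraries, which were close to each other, against 834 and 359 CPM in the controls, which were 2.32-fold apart. Dsp fell by DESeq2 with a log2 fold change of -1.17, an SE of 0.36 and an adjusted p of 0.0294, and the edgeR adjusted p was 0.294. In edgeR, leaving out control replicate 1 gave -0.43 and leaving out control replicate 2 gave -1.65, so its size depended on the control library. The ratio of Jup to Dsp CPM was 2.03 and 2.04 in the stressed libraries, against 1.14 and 2.09 in the controls, and control replicate 1 was the library that stood apart.

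Promoter sequences from RefSeq (GRCm38.p6, the same assembly as mm10) were matched for 3 of the 10. They are shown because these were the only members with such a sequence at hand. The 3 are Jup and Dsp, which fell by DESeq2, and Pkp4, whose level lay the other way and which was not called. Each runs 5′ to 3′ from 250 bases before to 50 bases after the transcript start, and capitals mark every GC box (GGGCGG) and CCAAT box (CCAAT) on either strand. The Jup promoter is at chr11:100397741-100398040 on the minus strand, that of Dsp at chr13:38151044-38151343 on the plus strand, and the first of 2 Pkp4 starts at chr2:59160600-59160899 on the plus strand.
Jup: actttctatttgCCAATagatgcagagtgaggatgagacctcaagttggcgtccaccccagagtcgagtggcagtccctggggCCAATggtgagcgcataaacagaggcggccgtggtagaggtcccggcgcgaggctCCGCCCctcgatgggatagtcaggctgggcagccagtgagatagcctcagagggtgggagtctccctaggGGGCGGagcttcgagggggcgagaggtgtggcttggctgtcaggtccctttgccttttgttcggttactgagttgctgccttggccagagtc
Dsp: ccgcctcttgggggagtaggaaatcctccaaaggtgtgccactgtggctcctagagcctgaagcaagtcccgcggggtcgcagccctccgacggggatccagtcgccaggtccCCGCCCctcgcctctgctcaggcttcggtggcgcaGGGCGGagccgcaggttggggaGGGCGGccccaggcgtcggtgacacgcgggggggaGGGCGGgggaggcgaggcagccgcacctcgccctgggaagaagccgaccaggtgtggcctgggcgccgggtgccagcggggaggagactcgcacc
Pkp4: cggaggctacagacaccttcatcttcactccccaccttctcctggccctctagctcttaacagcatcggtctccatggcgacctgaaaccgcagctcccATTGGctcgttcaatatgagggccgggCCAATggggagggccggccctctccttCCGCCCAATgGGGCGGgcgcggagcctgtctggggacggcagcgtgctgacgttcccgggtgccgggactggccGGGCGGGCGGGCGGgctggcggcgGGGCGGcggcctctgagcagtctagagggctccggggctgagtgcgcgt
The Jup promoter held 2 GC boxes and 2 CCAAT boxes, that of Dsp 4 GC boxes and 0 CCAAT boxes, and that of Pkp4 6 GC boxes, of which 3 overlap in a row, and 3 CCAAT boxes, of which 1 overlaps a GC box. The second Pkp4 promoter, at chr2:59161619-59161918, held 0 GC boxes and 0 CCAAT boxes. GC boxes occur in 35.7% and CCAAT boxes in 37.4% of 32851 such promoters. GC content was 60.7% for Jup, 73% for Dsp and 69.3% for the first Pkp4 promoter, against a median of 52.7%. The letters TATAAA (in 13.6% of promoters), TGANTCA, an AP-1 motif (7.81%), and AACCNGTT, a core of the grainyhead-like motif (2.09%), were searched on both strands and are not in these 3 windows.

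Perp encodes a small tetraspan membrane protein of desmosomes and is a known target of p53 and p63. It was the most abundant member, at 1055 and 841 CPM in the stressed libraries, against 2754 and 1238 CPM in the controls. The groups did not overlap, but the controls were 2.22-fold apart and control replicate 2 lay close to the stressed libraries. Perp fell by DESeq2 with a log2 fold change of -1.07, an SE of 0.35 and an adjusted p of 0.0489, just under the threshold, and the edgeR adjusted p was 0.335. In edgeR, leaving out control replicate 1 gave -0.37 and leaving out control replicate 2 gave -1.54. Trp63, which encodes the p63 transcription factor of the epidermis, was at 207 and 112 CPM in the stressed libraries against 336 and 356 CPM in the controls, and fell by DESeq2 (log2 fold change -1.11, adjusted p = 0.0111). Trp63 is also among the keratinocyte markers summed above, and whether its level bears on that of Perp was not tested.

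**Figure D2:**
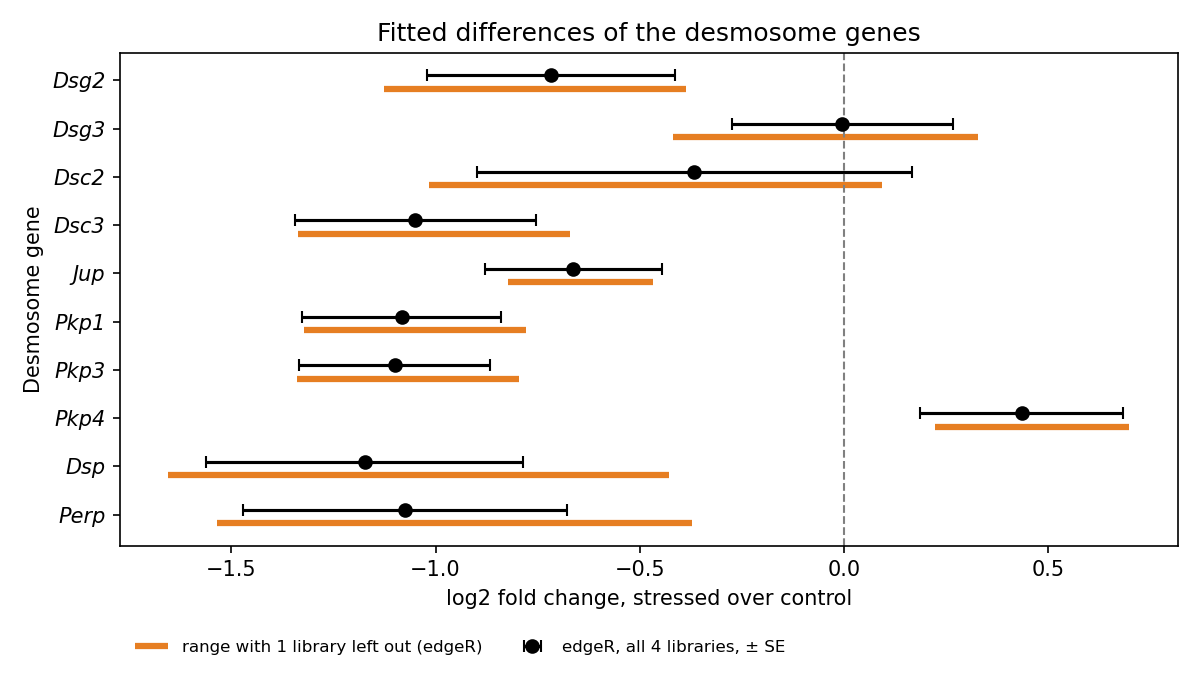
Fitted log2 fold change of each desmosome gene, stressed over control, from edgeR with all 4 libraries (points, with bars of 1 SE) and its range when 1 library is left out (orange lines). The ranges of Dsg3 and Dsc2 cross 0, those of Dsp and Perp are wide, from -1.65 to -0.43 and from -1.54 to -0.37, and those of Pkp1 and Pkp3 stay at or below -0.78.

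The level order of the members is best read per length. In CPM per kilobase of counted exon, averaged over the 4 libraries, the order was Perp at 774, Dsc3 at 163, Jup at 108, Pkp1 at 87.4, Pkp3 at 75.6, Dsp at 44.7, Dsg3 at 19.4, Pkp4 at 8.25, Dsg2 at 3.86 and Dsc2 at 1.43. The full order was the same in all 4 libraries. In the stressed group no neighbours in the order overlapped in range, whereas in the controls Jup and Pkp1, Pkp1 and Pkp3, and Pkp3 and Dsp overlapped. On this scale the level of Perp exceeded that of 99.8% of tested genes, while that of Dsc2 exceeded 16.8%. The called genes were thus the 6 highest members on this scale, and the 4 that were not called were the 4 lowest.

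The 2 controls differed from each other in most of these genes. The log2 difference of control replicate 1 over control replicate 2 was 1.2 for Dsp, 1.15 for Perp, 0.66 for Dsc3, 0.54 for Pkp3, 0.53 for Pkp1, 0.47 for Pkp4 and 0.35 for Jup. It was 0.07 for Dsg2, -0.18 for Dsg3 and -0.79 for Dsc2, the 3 scarcer cadherins. The summed keratinocyte markers differed between the controls by 0.78, higher in control replicate 1. Summed over the 10 genes, the libraries held 3188 and 2681 CPM in the stressed group, against 7285 and 4214 CPM in the controls.

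Set against keratinocyte marker counts of the same library, the groups overlapped for most of the 10 genes. The 10 genes together had 279.7 and 273 counts per 1000 keratinocyte marker counts in the stressed libraries, against 241 and 238 in the controls. Dsc3 had 56.3 and 49.3 in the stressed libraries, against 47.1 and 51.2 in the controls. Pkp1 had 26.1 and 27 in the stressed libraries, against 23.3 and 27.5 in the controls, and Pkp3 had 15.5 and 17.4 in the stressed libraries, against 14.6 and 17.2 in the controls. For 7 of the 10 genes the groups overlapped on this scale, among them Dsp, at 23.7 and 26.3 in the stressed libraries against 27.5 and 20.3 in the controls, and Perp, at 92.5 and 85.5 in the stressed libraries against 90.9 and 70.0 in the controls.

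Dsg3, Jup and Pkp4 were the 3 that lay above both controls on this scale, and 0 lay below. Pkp4 had 5.27 and 4.90 counts per 1000 marker counts in the stressed libraries, against 1.53 and 1.90 in the controls. Jup had 48.1 and 53.8 in the stressed libraries, against 31.5 and 42.5 in the controls, and Dsg3 had 8.73 and 6.04 in the stressed libraries, against 2.47 and 4.79 in the controls. Of all 13348 genes, 78.3% lay above both controls on this scale and 1.92% lay below. The part of keratinocyte marker RNA in the lower desmosome values was not tested.

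**Figure D3:**
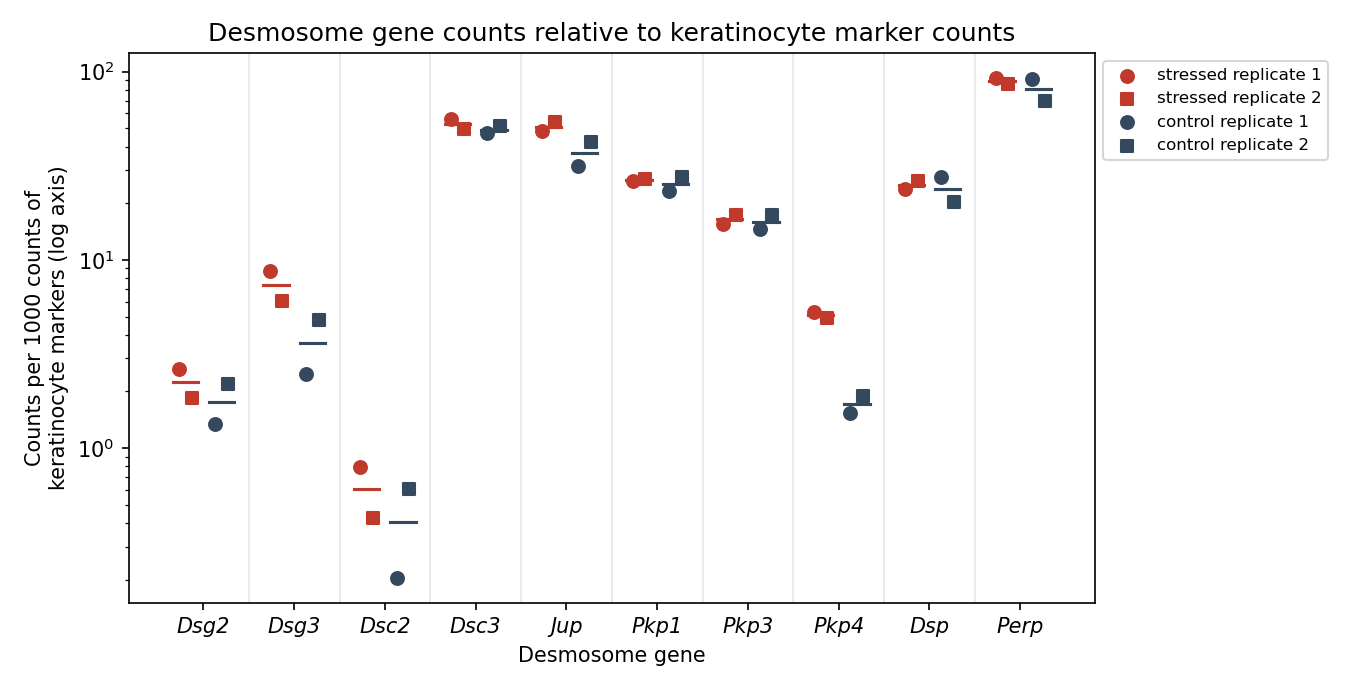
Counts of each desmosome gene per 1000 counts of the 17 keratinocyte markers in the same library, on a log axis, with stressed libraries in red, controls in dark blue and bars at the group mean. Dsg3, Jup and Pkp4 lie above both controls in both stressed libraries, while the groups of the other 7 genes overlap.

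Desmosome and cornified cell adhesion genes outside the 10 also included some that fell. Of 9 such genes 7 were tested, 2 fell by DESeq2 and 0 rose, and the median log2 fold change was -0.90. Dsg1a, a desmoglein of the upper epidermis, fell by DESeq2 to 233 and 245 CPM in the stressed libraries, against 746 and 365 CPM in the controls, and its split of reads with the near-identical Dsg1b is uncertain. Ppl, which encodes the plakin periplakin, fell by DESeq2 to 148 and 166 CPM in the stressed libraries, against 361 and 254 CPM in the controls. Evpl, its partner envoplakin, was at 118 and 109 CPM in the stressed libraries, against 285 and 138 CPM in the controls, and was not called by DESeq2 (adjusted p = 0.131).

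The keratins that desmosomes anchor were divided. Of 15 tested, 5 fell and 1 rose by DESeq2, and the median log2 fold change was -0.72. Krt5, a basal keratin, fell by DESeq2 to 1002 and 833 CPM in the stressed libraries, against 3104 and 1949 CPM in the controls. Krt14, its partner, fell by DESeq2 to 1769 and 1149 CPM in the stressed libraries, against 4645 and 2326 CPM in the controls. Krt6b, a keratin of wounded epidermis and of the hair follicle, had 197 and 149 counts in the stressed libraries and 0 in both controls, and reads may be shared with its close copies.

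Of 12 adherens junction genes DESeq2 called 0, and the median log2 fold change was 0.25, and edgeR had 2 lower and 1 higher at an unadjusted p below 0.05. Cdh1, which encodes E-cadherin, was at 1146 and 1239 CPM in the stressed libraries, against 1268 and 1171 CPM in the controls, and the groups overlapped. Ctnnb1, the β-catenin gene and a relative of Jup, was at 2523 and 2725 CPM in the stressed libraries, against 1815 and 2238 CPM in the controls, and was not called by DESeq2 (adjusted p = 0.416). Of 12 tight junction genes DESeq2 also called 0, with a median of -0.03 and, in edgeR, 0 lower and 1 higher at an unadjusted p below 0.05.

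Gap junction and hemidesmosome genes had members that fell. Of the gap junction genes Gjb5, a connexin gene, fell by DESeq2 to 19.7 and 17.5 CPM in the stressed libraries, against 80.1 and 27.5 CPM in the controls (adjusted p = 0.0397). Of 9 hemidesmosome genes, whose products anchor basal cells to the matrix, 1 fell by DESeq2, with a median of -0.30. It was Lamb3, a laminin chain gene, at 87.3 and 60.4 CPM in the stressed libraries against 146 and 151 CPM in the controls.

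Of 13 genes of desmosome assembly and turnover 1 rose and 0 fell by DESeq2, and the median log2 fold change was 0.33. In edgeR 1 was lower and 2 were higher at an unadjusted p below 0.05. The gene that rose by DESeq2 was Adam10, which encodes a protease known to shed cadherins, at 323 and 322 CPM in the stressed libraries against 216 and 184 CPM in the controls. Of 16 epithelial transcription factors and splicing regulators 6 fell and 0 rose by DESeq2, with a median of -0.69, and Esrp1, Esrp2 and Gata3 were among those that fell. Of 5 repressors of the epithelial programme 3 were tested and DESeq2 called 0, while in edgeR 1, Snai2, was higher at an unadjusted p below 0.05, at 100.1 and 92.7 CPM in the stressed libraries against 65.6 and 67.4 CPM in the controls. The lists were counted and not tested as sets, and keratinocyte markers overlap the keratin, hemidesmosome and transcription factor lists. Over all tested genes DESeq2 called 2.67% lower and 1.75% higher. In edgeR 7.6% were lower and 5.17% higher at an unadjusted p below 0.05.

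**Figure D4:**
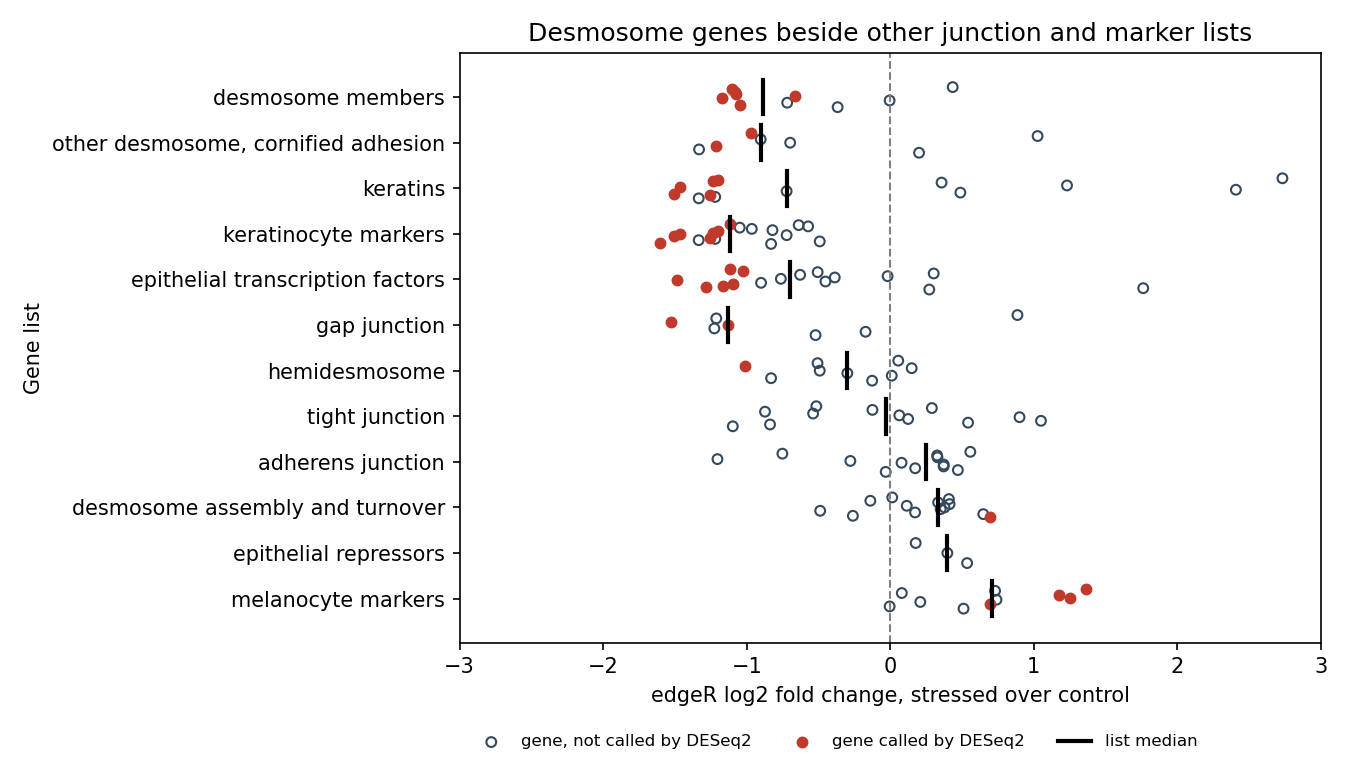
Log2 fold change from edgeR, stressed over control, for each tested gene of 12 lists (filled red where DESeq2 called it), with the list median as a black bar; Krt6b and Krt19 lie beyond the axis. Medians are -0.88 for the desmosome genes, -0.90 for other desmosome and cornified adhesion genes, -1.13 for gap junction genes and -1.12 for keratinocyte markers. They are -0.72 for keratins, -0.69 for epithelial transcription factors, -0.30 for hemidesmosome and -0.03 for tight junction genes. The others are 0.25 for adherens junction, 0.33 for assembly and turnover, 0.40 for epithelial repressors and 0.71 for melanocyte markers.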

How the data were processed

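The deposited values are whole-number counts of reads per gene, for which, per the file headers, the authors ran featureCounts 1.6.1, summing exons by gene name at a minimum mapping quality of 30 with no strand or paired-end option. The exon lengths used here are the authors' own, also deposited in these files. Tools listed in the submitters' processing notes are STAR 2.5.3, Trim Galore 0.4.1 and DESeq2 1.22.2, and the build is mm10. The headers of stressed replicates 1 and 2 name alignments numbered 2 and 3.

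Genes were kept by filterByExpr (minimum count 10), and libraries were scaled by TMM. The test was the edgeR 4.0.16 quasi-likelihood test (R 4.3.3), two-sided, with Benjamini-Hochberg adjustment over all genes and calls below 0.05. Alternatives included DESeq2 1.42.0 and limma 3.58.1 (voom). The code was tested on simulated data. The SE in edgeR is the size of the log2 fold change over the root of F. The limit at 0 covers counting error only.

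The members and lists were chosen with earlier results of these data known. The rule for names took all members and, from each other list, the 3 most abundant genes and up to 3 further DESeq2 calls, of which some are named. List symbols absent from the files were matched through RefSeq synonyms.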

Additional observations from a re-analysis of the deposited data

How the results depend on the processing

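With edgeR and all 4 libraries, 0 genes and 0 members were called, and the members' median log2 fold change was -0.88. With no low-count filter edgeR called 760 of 18926 genes and 5 members, with 2.67% of those genes called lower. DESeq2, on the 13348 filtered genes, called 589 genes and 6 members. DESeq2 size factors, upper-quartile scaling, a minimum of 5 CPM in 2 libraries, limma-voom, removal of the 20 most abundant genes and a robust edgeR fit, the last chosen after seeing the data, also gave 0 genes called. At an unadjusted p below 0.05 there were 1705 genes in edgeR with its main settings and 1700 in limma-voom. The cause of the differing counts was not tested. With 1 library left out edgeR called between 0 and 739 genes, and DESeq2 called 477 and 800 without control replicates 1 and 2 and 144 and 47 without stressed replicates 1 and 2. Between 0 and 6 members were called, and the median ran from -1.12 to -0.57.

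The labels number the replicates in both groups without saying that a number marks a shared source, and the deviations of replicate 1 correlated at 0.173 between the groups. With the replicate number as a block, edgeR called 0 genes and 0 members with a median of -0.87, and DESeq2 called 486 genes and 5 members, Jup not among them.

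Among the fitted alternatives, signs turned for 2 members. Dsg3, at -0.0043, was at 0.0023 with DESeq2 size factors, 0.0024 with the DESeq2 test and 0.0025 without the 20 most abundant genes, and at 0.093 in edgeR and 0.095 in DESeq2 without control replicate 2 and 0.33 in both without stressed replicate 2. Dsc2, at -0.37, was at 0.088 in edgeR and 0.091 in DESeq2 without control replicate 2 and at 0.094 in both without stressed replicate 2. The other 8 members kept their sign under every fitted alternative. Per keratinocyte marker counts, a ratio without a fit, the log2 ratio of every member was above 0. It ran from 0.050 for Pkp3 to 1.57 for Pkp4, on a scale where 78.3% of all genes lay above both controls. With 1 library left out Dsg3 ran down to -0.42 and Dsc2 down to -1.02, both without stressed replicate 1. Those fits assume that a group left with 1 library varies as much as the other. The low counts of Dsc2 limit its precision.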

Other observations

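Keratins of simple epithelium were high in single libraries, and these genes were chosen after their values were seen. Krt8 was at 103 and 3.0 CPM in stressed replicates 1 and 2, against 15.3 and 0.847 CPM in control replicates 1 and 2. Krt18 was at 103 and 3.18 CPM in the stressed libraries, against 19.5 and 0.847 CPM in the controls. Dsg2 and Dsc2, the desmosomal cadherins that simple epithelia also use, were higher in stressed replicate 1 than in stressed replicate 2, as was every other member. The ratio of the stressed libraries was 1.67 for Dsg2, 2.15 for Dsc2 and 1.67 for Dsg3, the desmoglein of the lower epidermis. Dsg2 and Dsc2 were not both higher in control replicate 1 than in control replicate 2. Cdsn, which encodes the cornified-layer adhesion protein corneodesmosin, was at 158 and 121 CPM in the stressed libraries, against 219 and 23.3 CPM in the controls, the largest ratio between controls among the tested desmosome and cornified adhesion genes.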
